A study of Mus musculus with 23 samples.

Results

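The expression of 9 genes of the complement system (C1ra, C1s1, C2, C3, C4b, Cfb, Serping1, Cd55 and C5ar1) was followed in 2 murine glioma lines grown in the brain. The genes were chosen by name, with earlier results of these data known, and are 9 of the 35576 genes in the quantified tables. The subunit genes of C1q were not among them. Complement is a cascade of plasma proteins and cell surface receptors. In the classical pathway, C1q bound to a target carries the proteases C1r and C1s, which cleave C4 and C2 into a convertase for C3. In the alternative pathway, factor B joins C3b to form another C3 convertase. C1 inhibitor (encoded by Serping1) and decay-accelerating factor (Cd55) restrain the cascade, and C5aR1 is the receptor through which myeloid cells sense the fragment C5a. In the brain, complement transcripts are made by glia, myeloid cells and vessels as well as by tumor cells.

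GL261 and CT2A are chemically induced glioma lines of C57BL/6 mice, used as immunocompetent models of glioblastoma, and the study compared them because they respond differently to immunotherapy. All tumors were grown in the right striatum of female albino C57BL/6 mice, 7 to 10 weeks of age. RNA sequencing gave 23 libraries of ex vivo tumors. Bulk tumors (Cohort A) came from cells that carried luciferase, GL261-luc2 (n = 4) and CT2A-luc (n = 4). Sorted samples (Cohort B) came from sublines of the luciferase lines, GL261 (n = 4) and CT2A (n = 3), whose tumors were dissociated and enriched for tumor cells on magnetic beads. A further sorted set came from the same sublines grown as neurospheres, 3 of GL261 and 5 of CT2A; the titles of those 5 libraries name GL261, whereas their cell line and description fields name CT2A, and they were taken as CT2A. None of the mice in these groups was labelled as treated. Each line is 1 culture, so the libraries of a group are tumors of 1 line and not independent lines. Bulk and sorted samples also differed in subline, in the number of cells implanted, in read length and in sequencer, and their library kits are described differently in the sources, so that sorting cannot be told apart from these. For bulk tumors, more cells were implanted of GL261 than of CT2A, so line and cell number cannot be told apart there. The sublines were implanted in equal number.

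GL261 bulk libraries held 34622622 to 42608400 estimated reads, CT2A bulk libraries 9590096 to 9853530, and sorted libraries 7395846 to 15263587. Sorted libraries were not free of other cells. The summed level of 13 macrophage markers was 156 to 1237 TPM, a unit that scales reads to transcript length and library total, in sorted GL261, 842 to 1879 in sorted CT2A, 4617 to 5585 in neurosphere-derived GL261 and 621 to 2391 in neurosphere-derived CT2A, beside 715 to 1102 and 856 to 1311 in GL261 and CT2A bulk tumors, and all 13 were above 0 in every library. Replicate 81 of sorted GL261 stood apart at 156 TPM against 624 to 1237 in the other 3. In RNA of mixed cells, fewer cells of a type and less RNA per cell cannot be told apart.

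Several members lie close together in the genome (GRCm38). C1ra (chromosome 6, 124512405 to 124523443, plus strand) and C1s1 (124530345 to 124542359, minus strand) point toward each other. C4b (chromosome 17, 34728380 to 34743882), Cfb (34856374 to 34862518) and C2 (34862604 to 34898265) lie in the class III region of the major histocompatibility complex, and C3 lies on the same chromosome outside it (57203970 to 57228136). Serping1 is on chromosome 2 (84765387 to 84775444), Cd55 on chromosome 1 (130439027 to 130462744) and C5ar1 on chromosome 7 (16246743 to 16259540), all on the minus strand.

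The 250 bases upstream of the start site are shown for C1s1 and C3, because these genes stand for the 2 patterns of expression described in what follows. The C1s1 window is chr6:124542360-124542609 and the C3 window chr17:57228137-57228386, both on the minus strand and written 5′ to 3′ from RefSeq on GRCm38.p6, in which 5 of the 9 members had an entry. Either strand was searched, and no match overlapped another. Capitals mark the C/EBP letters TTNNGNAA on either strand.
C1s1: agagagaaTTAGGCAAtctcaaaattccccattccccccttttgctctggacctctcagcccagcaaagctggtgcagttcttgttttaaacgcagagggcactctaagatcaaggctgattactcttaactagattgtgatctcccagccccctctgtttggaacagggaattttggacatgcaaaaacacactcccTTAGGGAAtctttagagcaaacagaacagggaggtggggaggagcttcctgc
C3: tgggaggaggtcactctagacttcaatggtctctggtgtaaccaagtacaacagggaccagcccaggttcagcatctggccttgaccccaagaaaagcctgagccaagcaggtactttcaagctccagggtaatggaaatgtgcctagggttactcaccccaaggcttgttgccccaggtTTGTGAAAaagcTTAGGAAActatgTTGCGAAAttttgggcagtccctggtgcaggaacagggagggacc
These letters occurred at 3 places in the C3 window, between bases -70 and -38, and at -242 and -52 in the C1s1 window. RefSeq holds another start site of C1s1, not shown, whose window (chr6:124542322-124542571) had these letters only at -90. The C/EBP letters were also present in 36.8% of 32851 windows of the same length, and 2.61% held 3 or more. The letters of the GAS (TTCNNNGAA, in 7.02% of windows), of the ISRE (GAAA, any 2 bases, GAAA, in 2.98%) and the NF-kB consensus (7.25%) were not in either window shown. The matches are letters in sequence and not measured sites.

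Sorted GL261 cells held the first components of the classical pathway at levels well above those of sorted CT2A cells. C1ra, the protease subunit that is activated first, stood at 46, 40.5, 34.2 and 60.4 TPM in the 4 sorted GL261 libraries and at 5.38, 3.53 and 4.59 TPM in the 3 sorted CT2A libraries. C1s1, the protease that cleaves C4 and C2, stood at 57, 63.7, 50.5 and 67.2 TPM in sorted GL261 and at 1.15, 0.773 and 0.429 TPM in sorted CT2A, the latter resting on 7 to 11.9 estimated reads a library. The lines did not overlap for either gene. The difference was -3.42 ± 0.28 (standard error) on the log2 scale for C1ra, 10.7-fold lower in CT2A, with an adjusted p of 2.72e-05 by the quasi-likelihood test of edgeR, and -6.48 ± 0.27 for C1s1 (89.3-fold lower, adjusted p = 1.35e-06).

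The same pair in bulk tumors did not pass the test. C1ra was at 14.6, 12.4, 17.8 and 20.8 TPM in GL261 and at 6.29, 7.23, 18.3 and 8.91 TPM in CT2A (log2 difference -0.79 ± 0.35, adjusted p = 0.15). C1s1 was at 12.5, 12.2, 21.6 and 24.3 TPM in GL261 and at 4.06, 2.82, 17.9 and 7.15 TPM in CT2A (-1.16 ± 0.58, adjusted p = 0.196). In both, CT2A replicate 47 lay within the range of the GL261 tumors, and the other 3 CT2A tumors lay below it. Without that tumor C1ra (-1.22, adjusted p = 0.0166) and C1s1 (-2.08, adjusted p = 0.008) passed.

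Neurosphere-derived tumors repeated the separation of the sorted cells. C1ra was at 43.3, 43.3 and 40.8 TPM in GL261 and 3.29, 5.21, 4.14, 5.31 and 3.75 TPM in CT2A (-3.28 ± 0.14, adjusted p = 9.75e-08). C1s1 was at 39.6, 42 and 48.8 TPM in GL261 and 0.341, 1.03, 0.918, 1.24 and 1.6 TPM in CT2A (-5.89 ± 0.28, adjusted p = 2.21e-07). The CT2A values of C1s1 rested on 5.72 to 23.7 estimated reads a library. Within a line, C1ra of neurosphere-derived and adherent tumors overlapped, and neither gene passed the test between the 2 culture forms. C1s1 shares sequence with its paralog C1s2, which took 0.0324 to 12.7% of the reads of the pair, and no reads were assigned to C1rb, the paralog of C1ra.

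C4b and C2, whose products form the classical C3 convertase, were the members that differed between the lines in all 3 settings. In bulk tumors, C4b was at 216, 233, 246 and 259 TPM in GL261 and 56, 71.5, 162 and 102 TPM in CT2A. C2 was at 66.8, 39.3, 76.2 and 80.9 TPM in GL261 and 10.4, 14.1, 28.8 and 9.49 TPM in CT2A. The lines did not overlap for either gene, and both were lower in CT2A, C4b by -1.47 ± 0.32 (2.77-fold, adjusted p = 0.0124) and C2 by -2.45 ± 0.36 (5.45-fold, adjusted p = 0.00234). These were the only members called in bulk tumors, 2 of 9, all lower in CT2A, beside 11.9% of all 16434 genes tested that were called lower there.

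The gap was wider in sorted cells. C4b was at 400, 474, 392 and 684 TPM in sorted GL261 and 8.65, 8.55 and 7.28 TPM in sorted CT2A (-6.08 ± 0.29, 67.6-fold lower, adjusted p = 2.3e-06). C2 was at 249, 154, 148 and 265 TPM in sorted GL261 and 9.1, 11.1 and 12.3 TPM in sorted CT2A (-4.53 ± 0.34, 23.1-fold lower, adjusted p = 1.88e-05). In neurosphere-derived tumors, C4b was at 258, 326 and 345 TPM in GL261 and 7.33, 4.51, 10.8, 23.9 and 8.27 TPM in CT2A (-4.81 ± 0.43, adjusted p = 1.49e-05), and C2 was at 101, 134 and 106 TPM in GL261 and 6.45, 10.5, 10.5, 23.7 and 8.83 TPM in CT2A (-3.49 ± 0.27, adjusted p = 3.34e-06). Replicate 60 was the highest neurosphere-derived CT2A library for both genes and remained below every GL261 library.

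Per length, C4b had the highest mean TPM of the 9 members in bulk tumors of both lines and in sorted GL261. Its part of the summed TPM of the 9 members was 47.4 to 53.3% in GL261 bulk tumors and 36 to 40.3% in CT2A bulk tumors. It was 48.7 to 56.7% in sorted GL261, but 6.74 to 15.5% in sorted CT2A and 10.1 to 23.5% in neurosphere-derived CT2A. In neurosphere-derived GL261 it was 24.6 to 34.8%, and there the mean of Cfb (318 TPM) was above that of C4b (310 TPM). In sorted CT2A the summed TPM of the 9 members was 55.1 to 108, against 777 to 1207 in sorted GL261. Reads of C4b may include those of its near-identical copy C4a, which was not analysed here. A read-through transcript over C2 and Cfb, Gm20547, took 0.151 to 1.49% of the reads of these genes.

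**Figure D1:**
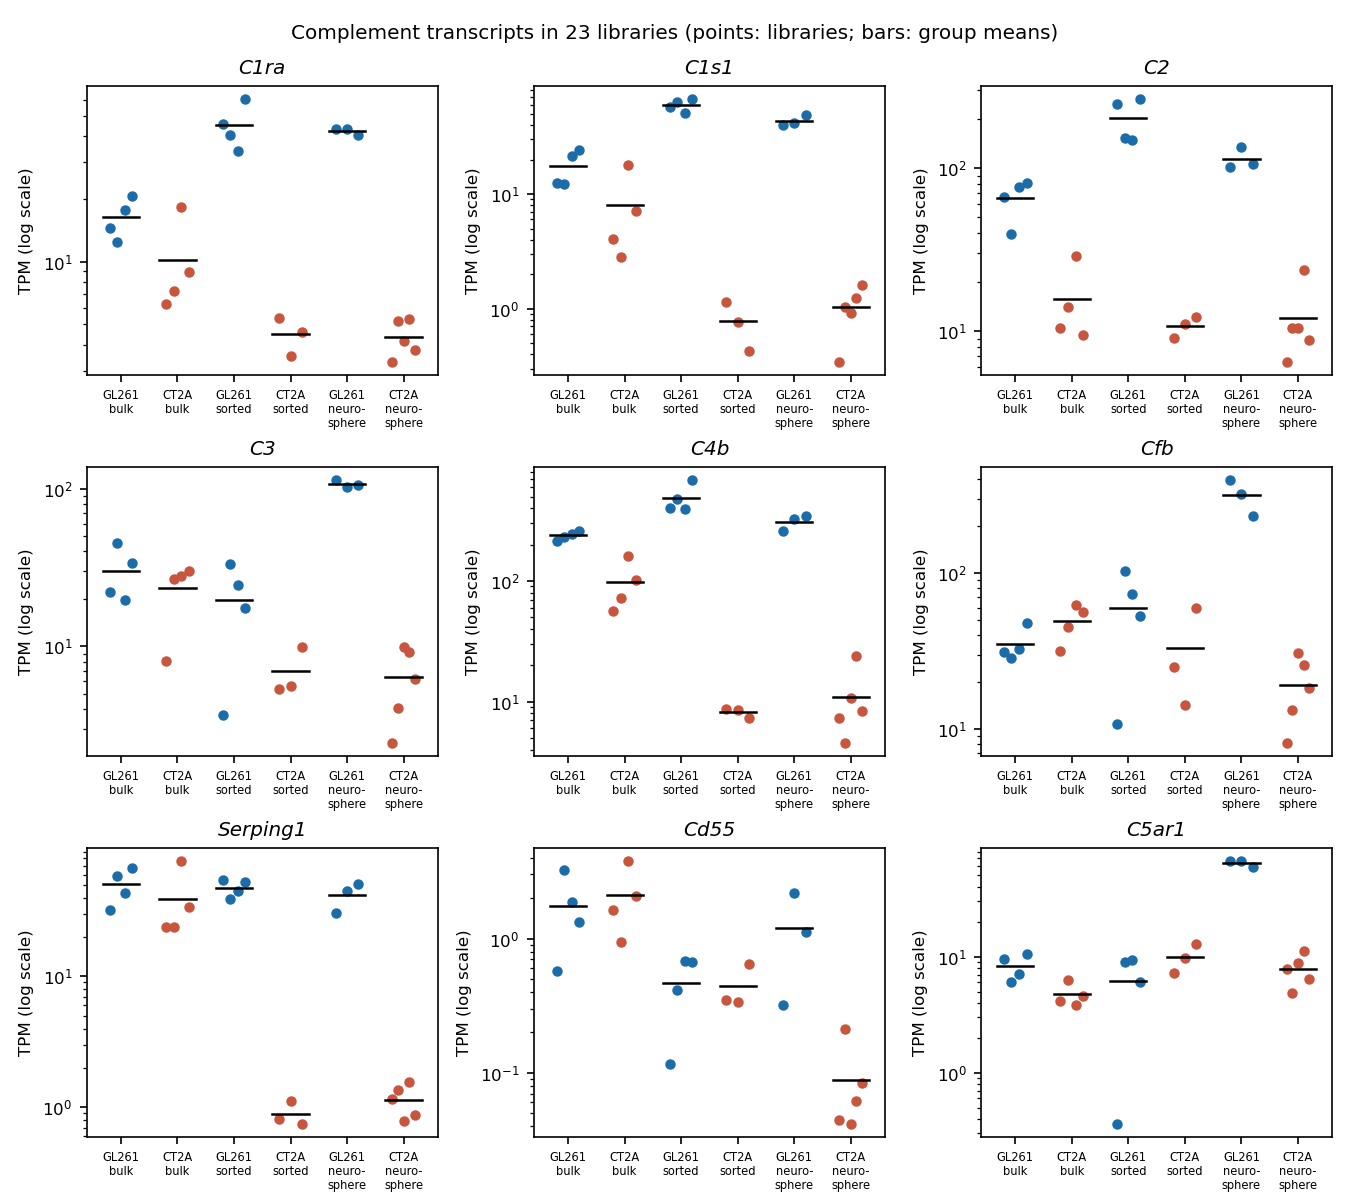
TPM of each of the 9 members on log axes, 1 panel a gene, with 1 point per library, black bars at group means, GL261 in blue and CT2A in red. C1ra, C1s1, C2, C4b and Serping1 are low in all 8 sorted or neurosphere-derived CT2A libraries, whereas C3, Cfb and C5ar1 are highest in the 3 neurosphere-derived GL261 libraries.

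C1 inhibitor followed the proteases that it inactivates. Serping1 stood at 54.5, 39.1, 44.6 and 53 TPM in sorted GL261 and at 0.813, 1.12 and 0.742 TPM in sorted CT2A, where 7 to 10 estimated reads were found a library. The difference was -5.74 ± 0.29 (53.4-fold lower in CT2A, adjusted p = 2.99e-06). In neurosphere-derived tumors it was at 30.5, 45.3 and 50.8 TPM in GL261 and 1.15, 1.35, 0.785, 1.55 and 0.871 TPM in CT2A (-5.13 ± 0.23, adjusted p = 1.55e-07). These CT2A values rested on 7 to 18 estimated reads a library. The lines did not overlap in either setting. In bulk tumors they did overlap, with 32.2, 59, 43.2 and 67.4 TPM in GL261 and 23.7, 23.8, 76 and 34 TPM in CT2A (-0.38 ± 0.41, adjusted p = 0.6), and the highest value of all 8 tumors was that of CT2A replicate 47. Without that tumor the difference was -0.94 (adjusted p = 0.0473).

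Cd55, which speeds the decay of C3 convertases on the cell surface, was the least abundant member. It was at 0.575, 3.26, 1.88 and 1.32 TPM in GL261 bulk tumors and at 1.62, 0.944, 3.77 and 2.06 TPM in CT2A bulk tumors, which overlapped (0.36 ± 0.49, adjusted p = 0.693). Sorted libraries held 0.117 to 0.675 TPM in GL261 and 0.334 to 0.648 TPM in CT2A, and the gene was below the minimum mean count of 10 in both sorted line comparisons and in both comparisons of culture form. In neurosphere-derived tumors it was at 0.321, 2.19 and 1.11 TPM in GL261 and at 0.0446, 0.212, 0.0413, 0.0614 and 0.0839 TPM in CT2A, where it rested on 1 to 4.19 estimated reads a library. The GL261 values rested on 2, 24.5 and 16 estimated reads, and the lines overlapped in normalized counts. When no minimum count was set, the line difference was -3.46 ± 0.77 (edgeR, adjusted p = 0.00193), and with all 6 groups in 1 fit it was -3.54 ± 0.72 (adjusted p = 0.0003). In sorted cells of adherent lines neither setting passed (adjusted p = 0.462 and 0.434). Up to 6.87% of the reads of Cd55 and its paralog Cd55b fell to Cd55b.

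C3, the protein on which all pathways converge, and factor B did not follow the pattern of the classical components. In bulk tumors, C3 was at 22, 45.3, 19.7 and 33.8 TPM in GL261 and 8.13, 26.7, 28.1 and 30.2 TPM in CT2A (-0.41 ± 0.41, adjusted p = 0.56). Cfb was at 31.3, 28.7, 32.4 and 47.6 TPM in GL261 and 31.4, 45.3, 62.9 and 56.4 TPM in CT2A (0.42 ± 0.27, adjusted p = 0.318). The lines overlapped for both.

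In sorted cells of adherent lines, C3 was at 3.66, 33.3, 24.5 and 17.5 TPM in GL261 and 5.36, 5.6 and 9.84 TPM in CT2A. Cfb was at 10.7, 103, 73.6 and 52.8 TPM in GL261 and 24.8, 14.3 and 59.4 TPM in CT2A. For each gene, the lowest of the 7 libraries was GL261 replicate 81, and the lines overlapped. C3 did not pass by edgeR (-1.54 ± 0.58, adjusted p = 0.0546) but passed by DESeq2 (adjusted p = 0.00903), and Cfb did not pass (-0.95 ± 0.64, adjusted p = 0.247). Without replicate 81, both passed, C3 at -1.87 (adjusted p = 0.0011) and Cfb at -1.28 (adjusted p = 0.0424).

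Neurosphere-derived GL261 held the highest levels of both genes. C3 was at 113, 103 and 106 TPM there and at 2.43, 4.04, 9.88, 9.15 and 6.24 TPM in neurosphere-derived CT2A (-4.06 ± 0.40, 16.6-fold lower in CT2A, adjusted p = 2.6e-05). Cfb was at 396, 325 and 233 TPM in GL261 and 8.08, 13.2, 30.7, 25.6 and 18.3 TPM in CT2A (-3.99 ± 0.32, 15.8-fold lower, adjusted p = 5.33e-06). Neither gene overlapped between the lines.

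C5ar1, the receptor for C5a that marks myeloid cells, overlapped between the lines outside neurosphere-derived tumors. It was at 9.57, 6.05, 7.09 and 10.5 TPM in GL261 bulk tumors and 4.11, 6.3, 3.86 and 4.61 TPM in CT2A bulk tumors (-0.64 ± 0.31, adjusted p = 0.186). In sorted cells it was at 0.359, 9, 9.29 and 5.98 TPM in GL261, the lowest in replicate 81 with 6 estimated reads, and 7.19, 9.76 and 12.9 TPM in CT2A (0.67 ± 0.71, adjusted p = 0.464). Neurosphere-derived GL261 stood apart at 66.1, 66.4 and 58.7 TPM against 7.87, 4.85, 8.76, 11.2 and 6.35 TPM in neurosphere-derived CT2A (-2.95 ± 0.22, 7.71-fold lower in CT2A, adjusted p = 3.03e-06).

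Across the sorted line comparisons, the count of members called was 5 of 8 tested in adherent lines, all lower in CT2A, beside 26.8% of the 13789 genes tested that were called lower. It was 8 of 8 in neurosphere-derived tumors, all lower in CT2A, beside 29.6% of 13733 genes. The median log2 difference of the tested members was -3.97 in adherent lines and -4.02 in neurosphere-derived tumors, and that of all genes was -0.01 and 0.03. In the same neurosphere comparison, all 13 macrophage markers were lower in CT2A (median -2.60), as were 8 of 10 endothelial and 7 of 8 astrocyte markers, and in adherent lines 0 of 12 macrophage markers tested and 6 of 10 endothelial markers were called, the latter all lower in CT2A. Oligodendrocyte markers were lower in CT2A for 4 of 7 in adherent lines (median -2.50) and 5 of 7 in neurosphere-derived tumors (median -3.38). In adherent lines, 3 of 8 astrocyte markers were lower and 1 was higher in CT2A (median -0.55). Of 7 neuron markers tested there, 2 were lower and 1 higher (median 0.87), and of 6 microglia markers 0 were lower and 1 higher (median 1.01). The part of these cells in the results was not tested.

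**Figure D2:**
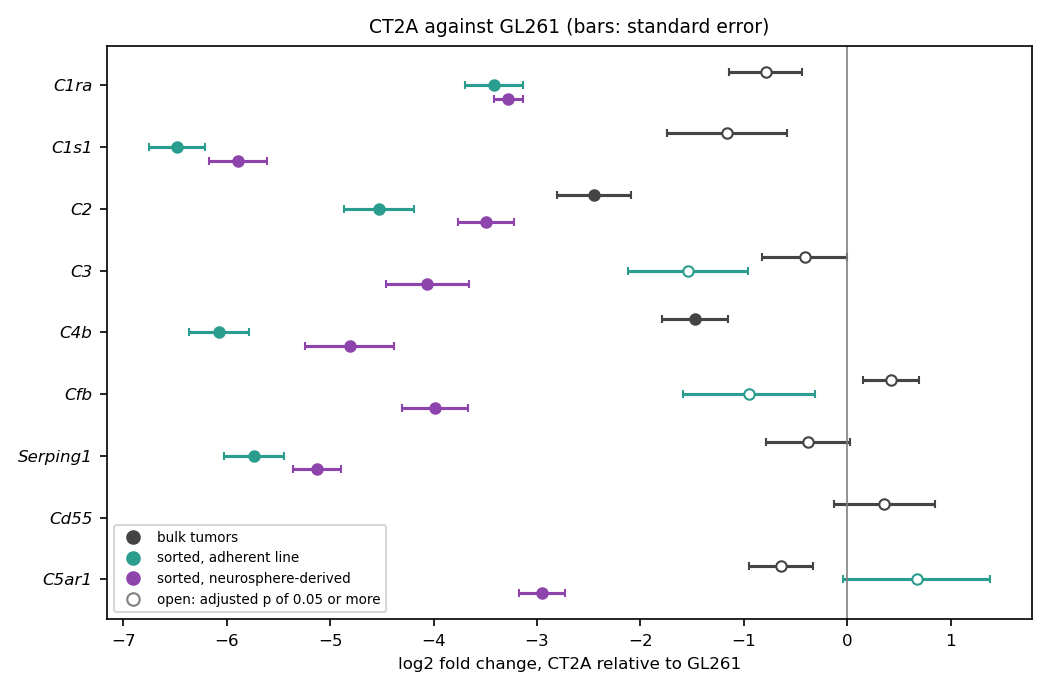
Log2 fold change of CT2A relative to GL261 for each member tested, with bars of 1 standard error, in bulk tumors (grey), sorted cells of adherent lines (green) and sorted cells of neurosphere-derived tumors (purple). Filled points passed an adjusted p of 0.05, which C2 and C4b did in all 3 settings and C3, Cfb and C5ar1 only in neurosphere-derived tumors.

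Whether the line difference itself differed between sorted cells and bulk tumors was tested as an interaction. It was larger in sorted cells for 5 of 9 members, beside 5.8% of 15845 genes called in that direction: Serping1 (-5.25 ± 0.62, adjusted p = 0.000128), C1s1 (-5.22 ± 0.78, adjusted p = 0.000672), C4b (-4.50 ± 0.44, adjusted p = 2.91e-05), C1ra (-2.53 ± 0.47, adjusted p = 0.00301) and C2 (-1.99 ± 0.47, adjusted p = 0.0131). The median over all genes was 0.12. C3 (-0.99 ± 0.74), Cfb (-1.26 ± 0.70), Cd55 (-0.99 ± 0.88) and C5ar1 (1.41 ± 0.81) did not pass.

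For C1s1 and C4b, the difference between sorted cells and bulk tumors had opposite signs in the 2 lines. In GL261, sorted cells were higher than bulk tumors in C1s1 (2.14 ± 0.25, adjusted p = 0.000888), C2 (2.02 ± 0.33, adjusted p = 0.00303), C1ra (1.70 ± 0.24, adjusted p = 0.00211) and C4b (1.38 ± 0.22, adjusted p = 0.00267), without overlap. These were 4 of 9 members called higher, beside 14.4% of 16265 genes. In CT2A, sorted cells were lower than bulk tumors in Serping1 (-5.12 ± 0.62, adjusted p = 0.00082), C4b (-3.28 ± 0.40, adjusted p = 0.000847), C1s1 (-3.24 ± 0.79, adjusted p = 0.0111), C3 (-1.51 ± 0.44, adjusted p = 0.0231) and Cd55 (-3.00 ± 0.56, adjusted p = 0.00333). C3 overlapped between these groups and did not pass without CT2A bulk replicate 47 (adjusted p = 0.056) or without sorted replicate 69 (0.0822) or 70 (0.086). Cd55 rested on 2, 3 and 4.04 estimated reads in the sorted CT2A libraries, so the size of its difference is uncertain. Its mean normalized counts were 3.32 in sorted CT2A and 27.2 in CT2A bulk tumors, and it met the minimum count through the bulk tumors. With Cd55 included, 5 of 9 members were called lower, beside 26.9% of 14701 genes.

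Other members gave smaller or less certain differences. In CT2A, C1ra was -0.99 ± 0.39 (adjusted p = 0.068) and C2 -0.13 ± 0.30 between sorted cells and bulk tumors. Serping1 in GL261 was 0.29 ± 0.26 (adjusted p = 0.405) between sorted cells and bulk tumors. C5ar1 was higher in sorted CT2A than in CT2A bulk tumors (1.24 ± 0.26, adjusted p = 0.00555), beside 23% of genes called higher, did not pass with all 6 groups in 1 fit (adjusted p = 0.0542), and was -0.02 ± 0.68 in GL261. Cd55 in GL261 was called lower in sorted cells at the threshold (-1.88 ± 0.64, adjusted p = 0.0493) with overlapping groups, beside 20.1% of genes called lower, and did not pass with RSEM expected counts (adjusted p = 0.0526) or in 6 of 8 fits that left out 1 library (0.0815 to 0.118). These comparisons use the same libraries as the line comparisons and are not further samples. Neuron and oligodendrocyte markers moved with the sort in both lines, with 9 of 9 and 7 of 7 lower in sorted than in bulk CT2A and 8 of 9 and 5 of 7 in GL261. Other lists differed between the lines. Endothelial markers were lower for 8 of 10 in CT2A, whereas in GL261 0 were lower and 1 was higher. T cell markers were lower for 5 of 6 in CT2A and 1 of 6 in GL261. Astrocyte markers were lower for 7 of 8 in CT2A, and in GL261 5 were lower and 1 higher. Of 13 macrophage markers, 3 were higher in sorted CT2A and 1 was lower in sorted GL261. The part of these cells in the members' differences was not tested.

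Bulk tumors were not uniform among themselves. CT2A replicate 47 stood above the other 3 CT2A tumors in C1s1 (3.83 times their mean TPM), Serping1 (2.8 times), C2 (2.54 times), C1ra (2.45 times), Cd55 (2.44 times) and C4b (2.11 times), and less so in Cfb (1.42 times) and C3 (1.29 times), while C5ar1 was at 0.771 times. Its summed neutrophil markers were at 2.05 times (34.3 TPM), its oligodendrocyte markers at 1.86 times, its astrocyte markers at 1.52 times and its macrophage markers at 1.14 times the mean of the other 3. Without this tumor, 5 members were called lower in CT2A bulk tumors instead of 2. The part of these cells in this tumor's values was not tested.

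In sorted GL261 replicate 81, some members were low and others were not. Its macrophage markers were at 0.153 times the mean of the other 3 sorted GL261 libraries, its microglia markers at 0.278 times and its endothelial markers at 0.274 times. Neutrophil markers were at 0.179 times, oligodendrocyte markers at 0.504 times, astrocyte markers at 0.547 times and T cell markers at 0.729 times. Neuron (0.926 times) and pericyte markers (1.03 times) were near that mean. C5ar1 was at 0.0444 times, Cfb at 0.14 times and C3 at 0.146 times that mean. C2 (1.32 times), Serping1 (1.2 times), C1ra (1.02 times), C1s1 (0.944 times) and C4b (0.775 times) stayed near the level of the other libraries. In this library, 5 members remained near the level of the other sorted GL261 libraries and 3 were lower. Cd55 was at 0.2 times that level, on 2 estimated reads against 3 to 11.4, too few to place it. The part of the marked cell types in the values of this library was not tested.

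**Figure D3:**
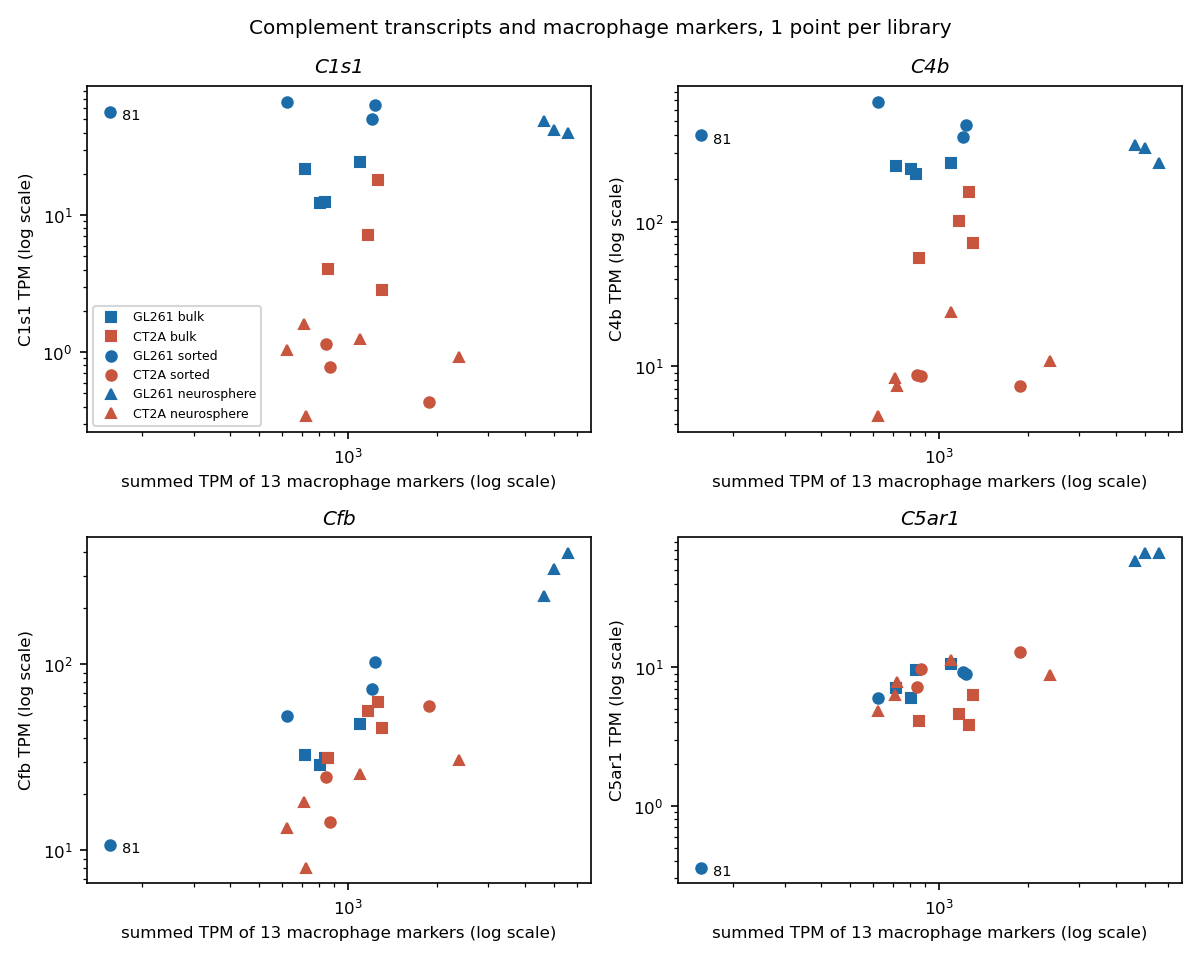
TPM of C1s1, C4b, Cfb and C5ar1 against the summed TPM of 13 macrophage markers, both on log axes, 1 point per library, with GL261 in blue, CT2A in red, and squares, circles and triangles for bulk, sorted and neurosphere-derived tumors. Sorted GL261 replicate 81, labelled 81, lies at 57 TPM for C1s1 among the other sorted GL261 libraries, but at 10.7 TPM for Cfb and 0.359 TPM for C5ar1 it lies below the other 3.

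Between culture forms in GL261, C3, Cfb and C5ar1 differed, and Cd55 was not tested. Neurosphere-derived tumors were higher than those of the adherent line in C5ar1 (3.37 ± 0.66, 10.3-fold, adjusted p = 0.0193), C3 (2.58 ± 0.53, 5.98-fold, adjusted p = 0.0235) and Cfb (2.56 ± 0.58, 5.88-fold, adjusted p = 0.032), without overlap. These were 3 of 8 members tested, beside 7.58% of 13675 genes called higher. C1ra (-0.03 ± 0.22), C1s1 (-0.30 ± 0.17), C2 (-0.79 ± 0.30), C4b (-0.57 ± 0.21) and Serping1 (-0.16 ± 0.23) did not pass. In the same comparison 12 of 13 macrophage markers were higher, with a median of 3.09, and their part in the 3 calls was not tested. The 3 calls rest on few libraries. None remained when replicate 84 of the adherent line or any 1 of the neurosphere-derived replicates 89, 90 and 91 was left out, and 1 remained without replicate 83, while the 3 differences stayed between 2.21 and 3.62.

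In CT2A, the 2 culture forms were not separated. None of 8 members passed by edgeR, 0 had an unadjusted p under 0.05, and 0 passed by DESeq2, beside 0.167% of 13142 genes called by edgeR. The largest differences were 0.63 ± 0.43 for C4b and -0.56 ± 0.39 for Cfb. As an interaction, the line difference was larger in neurosphere-derived than in adherent tumors for C5ar1 (-3.66 ± 0.73, adjusted p = 0.0114), Cfb (-3.08 ± 0.73, adjusted p = 0.0222) and C3 (-2.57 ± 0.72, adjusted p = 0.0465), 3 of 8 members beside 5.7% of 13824 genes called in that direction. Without any minimum count C5ar1 alone passed, as it did without CT2A replicate 71 or without neurosphere-derived GL261 replicate 89 or 90. C3 did not pass in 11 of 15 fits that left out 1 library (adjusted p of 0.0531 to 0.142 in these, replicates 83, 84, 69, 70, 71, 89, 90, 91, 57, 58 and 61). In this interaction, 10 of 13 macrophage markers were called in the same direction.

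**Figure D4:**
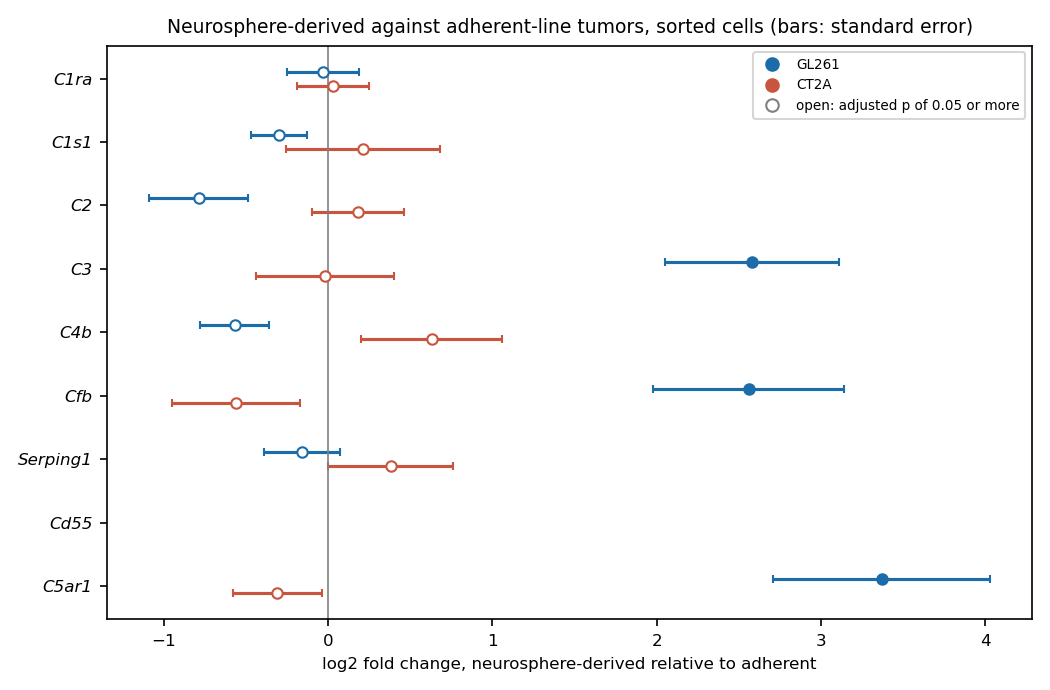
Log2 fold change of neurosphere-derived relative to adherent-line tumors for each member tested, with bars of 1 standard error, in GL261 (blue) and CT2A (red). The filled points, which passed an adjusted p of 0.05, are C3, Cfb and C5ar1 in GL261 between 2.56 and 3.37, and no member passed in CT2A.

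The order of mean TPM over the 6 groups differed between the members. C1ra, C1s1, C2 and C4b were highest in sorted GL261, then neurosphere-derived GL261, GL261 bulk tumors and CT2A bulk tumors, with sorted and neurosphere-derived CT2A lowest and overlapping each other. C1ra in the first 2 groups and C4b in the second and the third overlapped, as did GL261 and CT2A bulk tumors for C1ra and C1s1, and CT2A bulk and neurosphere-derived tumors for C2. Neighboring groups overlapped for Serping1 among the 3 GL261 groups and CT2A bulk tumors (means of 39.4 to 50.5 TPM), all above the 2 sorted CT2A groups (1.14 and 0.891 TPM). C3, Cfb and C5ar1 were highest in neurosphere-derived GL261 (means of 108, 318 and 63.7 TPM), and each neighboring pair among the remaining 5 groups overlapped. Cd55 was highest in CT2A bulk (2.1 TPM) and GL261 bulk tumors (1.76 TPM), and each neighboring pair overlapped down to sorted CT2A, above neurosphere-derived CT2A.

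Over the 23 libraries, members were compared in pairs on the log2 scale, as a description of libraries that share groups and depth. Pearson's r was 0.98 for C1ra with C1s1, 0.97 for C1s1 with C4b, 0.94 for C4b with Serping1 and 0.92 for C3 with Cfb, but 0.16 for C1s1 with C5ar1 and -0.02 for Serping1 with C5ar1. C3 was as close to C4b (0.69), C1s1 (0.67) and Serping1 (0.66) as to C5ar1 (0.65), and Cd55 was closest to Serping1 (0.67) and at -0.04 with C5ar1. Among 15466 genes, those most like C5ar1 were Cd84 (r = 0.96), P2ry6 (0.95) and C3ar1, the receptor for C3a (0.95). Those most like Cfb were Fgl2 (0.97), Ptpn6 (0.96) and Crybg1 (0.96), and those most like C3 were Mocos (0.95), Rab27a (0.95) and Crybg1 (0.94). C1ra was most like C1s1 (0.98), Art3 (0.97) and Nod1 (0.97). For C1s1 they were Art3 (0.99), Itih5 and Gfpt2 (0.98 each), for C4b Plxnb3, Serpina3n and Stk32a (0.98 each), for C2 C130026I21Rik (0.99), Rfx6 and ENSMUSG00000095450 (0.98 each), for Serping1 Kcna6, Rgs3 and Myrf (0.98 each), and for Cd55 Parm1 (0.93), Hrh1 and Nbl1 (0.92 each).

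Genes beside the clusters did not all share the difference of the members. Within 50 kb of C1ra and C1s1, 1 further gene was tested, Clstn3, a calsyntenin, which was lower in sorted CT2A (-4.24) and neurosphere-derived CT2A (-6.39) and was -0.27 in bulk tumors without passing. Within 50 kb of C4b to C2, 9 genes were tested in sorted cells. Of these, 2 were lower and 1 higher in CT2A, beside 26.8% of all genes called lower there. The differences ran from -5.29 for Tnxb, the matrix protein tenascin XB, to 0.65 for Ehmt2, a histone methyltransferase. In bulk tumors, 0 of these 9 were lower and 1 was higher by edgeR, beside 11.9% of all genes called lower. The 9 include Gm20547, the read-through transcript over C2 and Cfb, which is not a separate neighbor. It was not among the 8 genes tested in neurosphere-derived tumors. Of those 8, 2 were lower and 1 higher in CT2A, beside 29.6% of all genes called lower.

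Of 47 other complement genes listed, 46 were in the tables. In bulk tumors 28 were tested, of which 6 were lower and 1 higher in CT2A, beside 11.9% of all 16434 genes called lower. Their median log2 difference was -0.13, beside -0.05 for all genes. The higher one was Cfd, factor D, the protease that cleaves factor B, with 191 ± 17 normalized counts in CT2A against 1.34 ± 1.48 in GL261 (SD, n = 4 each). Cfd had 0 ± 0 normalized counts in sorted CT2A (n = 3) and in neurosphere-derived CT2A (n = 5). Relative to CT2A bulk tumors, sorted CT2A was at -9.23 ± 0.55 (edgeR, adjusted p = 0.00024). Among those lower in CT2A were Hc, which encodes C5 (-6.16 ± 0.53, adjusted p = 0.000351), Cr2, the complement receptor of B cells (-3.69 ± 0.42, adjusted p = 0.000893), and C7, a component of the membrane attack complex (-4.09 ± 0.71, adjusted p = 0.00495). C1rl, a relative of C1r, was also lower (-1.28 ± 0.34, adjusted p = 0.0287).

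In sorted cells of adherent lines, 24 of the list were tested, of which 6 were lower and 4 higher in CT2A. The share called lower was near the 26.8% of all 13789 genes, and the median of the 24 was 0.06. Hc had 1.05 ± 1.02 (SD, n = 3) normalized counts in CT2A and 162 ± 25.3 (SD, n = 4) in GL261, C7 had 0.316 ± 0.548 against 157 ± 72, and Cr2 had 1 ± 0.954 against 126 ± 53.8. C1rl was also lower (-3.99 ± 0.30, adjusted p = 1.86e-05). Higher in CT2A were Masp1, a protease of the lectin pathway (4.76 ± 0.27, adjusted p = 4.43e-06), Colec12, a scavenger receptor with a collectin domain (2.63 ± 0.30, adjusted p = 0.000182), and Cd59b (2.96 ± 0.45, adjusted p = 0.000793) and Cd59a (1.19 ± 0.38, adjusted p = 0.0279), which encode inhibitors of the membrane attack complex.

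Neurosphere-derived tumors moved more of the list. Of 26 tested, 20 were lower and 3 higher in CT2A, with a median of -2.24, beside 29.6% of 13733 genes called lower. The lower ones included the myeloid receptor subunit Itgax (-3.31 ± 0.18, adjusted p = 4.65e-07) and C3ar1 (-3.14 ± 0.20, adjusted p = 1.05e-06), as well as C7 (0.687 ± 0.946 normalized counts in CT2A, n = 5, against 210 ± 46.5 in GL261, n = 3) and Hc (1.16 ± 0.747 against 137 ± 50.8). Masp1 (5.10 ± 0.39, adjusted p = 3.2e-06), Cd59b (3.46 ± 0.42, adjusted p = 6.05e-05) and Colec12 (0.78 ± 0.22, adjusted p = 0.0111) were higher in CT2A. Between culture forms, 12 of 24 were higher in neurosphere-derived GL261, beside 7.58% of 13675 genes called higher, and 0 were lower. In CT2A 0 of 21 passed by edgeR, beside 0.167% of 13142 genes.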

How the data were processed

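Salmon, run by the authors on the transcriptome of mm10 (GRCm38), gave the deposited estimated counts per transcript, which are not normalized, deposited TPM, which account for length and depth, and effective lengths. For bulk and adherent-line sorted samples the deposited tables also hold expected counts and TPM per gene, made with STAR 2.7.7a and RSEM 1.3.3.

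Estimated counts of 116546 transcripts were summed per gene and rounded, and TPM were summed per gene. Left out were 180 transcripts without a gene, with 0.0413 to 0.152% of a library's reads. Genes whose TMM-normalized counts averaged above 10 in a comparison were tested with the robust quasi-likelihood test of edgeR 4.0.16 in R 4.3.3, with Benjamini-Hochberg adjustment over all genes tested and a threshold of 0.05; the study used DESeq2 1.30.1. Log2 differences are given ± standard error, normalized counts as mean ± SD. The study gives n as mice for bulk tumors and for sorted cells. The labels do not name the animals, and p-values measure the spread between libraries. No 2 libraries held identical counts. Intervals of counting error are not given, and low read numbers are printed instead.

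The alternatives were DESeq2 1.42.0, edgeR with size factors of DESeq2, no minimum count, an offset for effective length, all 6 groups in 1 fit, RSEM values, added reads of paralogs (C1rb, C1s2 and Cd55b) and each library left out. The workflow was tested on simulated data.

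The members, the lists of other complement genes and of cell type markers, and the tests were chosen with earlier results of these data known. Named beside the members were, per line comparison, up to 4 higher and 4 lower listed complement genes with the smallest p, and the 3 genes with the highest Pearson's r of log2(CPM + 1) with each member. Neighboring genes were named after their values were seen. Motifs were searched in RefSeq promoter windows of 250 bases. Figures were drawn with matplotlib 3.10.9. Some items are not reported here.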

Additional observations from a re-analysis of the deposited data

Results flagged for a closer look

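In groups of 4 or 5 libraries, the extreme library of each member was compared with the others by Dixon's ratio. Of 36 sets of values, 3 had such a library, and chance alone gives about 1 in 20. C2 was at 23.7 TPM in neurosphere-derived CT2A replicate 60 against 6.45 to 10.5 TPM in the other 4 libraries. C3 was at 8.13 TPM in CT2A bulk replicate 39 against 26.7 to 30.2 TPM in the other 3. Cd55 was at 0.212 TPM in neurosphere-derived CT2A replicate 58 against 0.0413 to 0.0839 TPM, on 4.19 estimated reads. Leaving out these libraries changed no call of C2 or C3 in the line comparison of the group concerned, and Cd55 was below the minimum count there.

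The difference between the lines differed between sorted cells and bulk tumors, as a log2 interaction, for C1ra (-2.53), C1s1 (-5.22), C2 (-1.99), C4b (-4.50) and Serping1 (-5.25). It differed between neurosphere-derived and adherent tumors for C3 (-2.57), Cfb (-3.08) and C5ar1 (-3.66).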

How the results depend on the processing

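Of 1202 log2 differences of members recomputed under the alternatives, 59 changed their side of the threshold and 23 changed sign, 0 of the latter a called difference. The interaction of bulk tumors and sorted cells gave 5 members under each alternative, the neurosphere-derived line comparison 8 to 9, the sorted line comparison 5 to 7 and the comparisons of sorted with bulk 4 to 5 in GL261 and 5 to 7 in CT2A. Leaving out 1 library at a time gave 2 to 5 members called in bulk tumors, 0 to 3 between GL261 culture forms and 1 to 3 in the interaction of neurosphere-derived and adherent tumors, and the latter gave 1 without a minimum count, where more genes were tested. Between CT2A culture forms C3 was 0.01 without a minimum count, and between sorted and bulk GL261 C5ar1 was 0.00 with all 6 groups in 1 fit and 0.09 with RSEM expected counts. With 1 library left out, the GL261 culture forms differed by -0.16 to 0.11 in C1ra and -0.27 to 0.01 in Serping1. Those of CT2A differed by -0.13 to 0.20 in C1ra, -0.09 to 0.41 in C1s1, -0.07 to 0.32 in C2, -0.30 to 0.28 in C3 and -0.89 to 0.01 in Cfb. C5ar1 ran from -0.26 to 0.37 between sorted and bulk GL261, C2 from -0.28 to 0.21 between sorted and bulk CT2A, and C1ra from -0.06 to 0.26 in the interaction of neurosphere-derived and adherent tumors. The causes were not tested. Of 36 mean TPM values, 3 moved by more than 1 SD with RSEM, namely C4b in GL261 bulk tumors (287) and in sorted CT2A (9.65) and Serping1 in sorted CT2A (1.13). Depth limits Cd55, C1s1 and Serping1 in sorted and neurosphere-derived CT2A. No paired analysis was possible because the groups share no replicate numbers.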
